A study of Mus musculus with 16 samples.

Results

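The pentose phosphate and NADPH supply genes of mouse liver were described here as 10 genes chosen by symbol from the authors' deposited table of 30463 genes, a set drawn up with earlier results of these data known. They are G6pdx, H6pd, Pgls and Pgd of the oxidative branch, Rpia, Rpe, Tkt and Taldo1 of the non-oxidative branch, and the further NADPH sources Idh1 and Nnt. All 10 were present, and all 10 had an adjusted p-value, as did 16288 genes of the table. The libraries came from livers of wild type C57BL/6N mice at 14 weeks of age, with 4 samples in each of 4 groups. The groups were diethylnitrosamine (DEN) with the 60% high fat diet, vehicle with the 60% high fat diet, DEN with control diet, and vehicle with control diet. DEN is a liver carcinogen that is activated by cytochrome P450 enzymes. Every mouse was injected with DEN or vehicle at 2 weeks, and the diets differed from 6 weeks onwards.

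All values come from 1 comparison of the authors, and their table does not name its sides. Genes with a positive log2 fold change are therefore called higher on the positive side and those with a negative log2 fold change lower there, and no direction is tied to diet or to DEN. The 16 columns of single libraries carry codes that match no label, so no value per sample, no spread between samples and no depth per library is given. Errors are the authors' standard errors (SE), from which 95% normal intervals were made. A gene is called when the authors' adjusted p-value is below 0.05, which held for 1070 genes (6.57%), with 3.67% called positive and 2.90% called negative. Alb, the albumin gene of hepatocytes, had the highest mean normalized count of all tested genes in the authors' deposited table, and there the fat cell genes Adipoq, Retn and Plin1 had between 0.387 and 0.558.

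The pentose phosphate pathway takes glucose phosphate out of glycolysis. Its oxidative branch releases carbon dioxide and reduces NADP+ to NADPH, and its reversible non-oxidative branch rearranges the sugar phosphates back into glycolytic intermediates or into ribose phosphate for nucleotides. Hepatocytes use NADPH for the synthesis of fatty acids and cholesterol, for cytochrome P450 reactions and for the reduction of glutathione and thioredoxin. Cytosolic isocitrate dehydrogenase and malic enzyme are further sources in the cytosol, and nicotinamide nucleotide transhydrogenase is one in the mitochondrion.

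Transaldolase and cytosolic isocitrate dehydrogenase were the 2 genes of the set that were called, both higher on the positive side. Taldo1 was 1.38-fold higher and Idh1 was 1.26-fold higher in the authors' deposited table. The entry enzyme gene G6pdx pointed the other way, at 0.612-fold, without passing the threshold. All 4 genes of the non-oxidative branch were positive in sign, while the oxidative branch was split, with Pgd and Pgls positive and G6pdx and H6pd negative. Of the 10 genes, 2 were called positive and 0 negative, where 6.57% of all tested genes were called, 3.67% positive and 2.90% negative. At an unadjusted p under 0.05 there were 4 positive genes and 1 negative gene (G6pdx) in the set, beside 9.64% positive and 9.41% negative of all tested genes (19.0% together). In sign, 7 of the 10 genes were positive, beside 49.2% of all tested genes. The set had a median of 0.26 on the log2 scale, beside -0.0044 for all tested genes of the authors' deposited table.

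**Figure D1:**
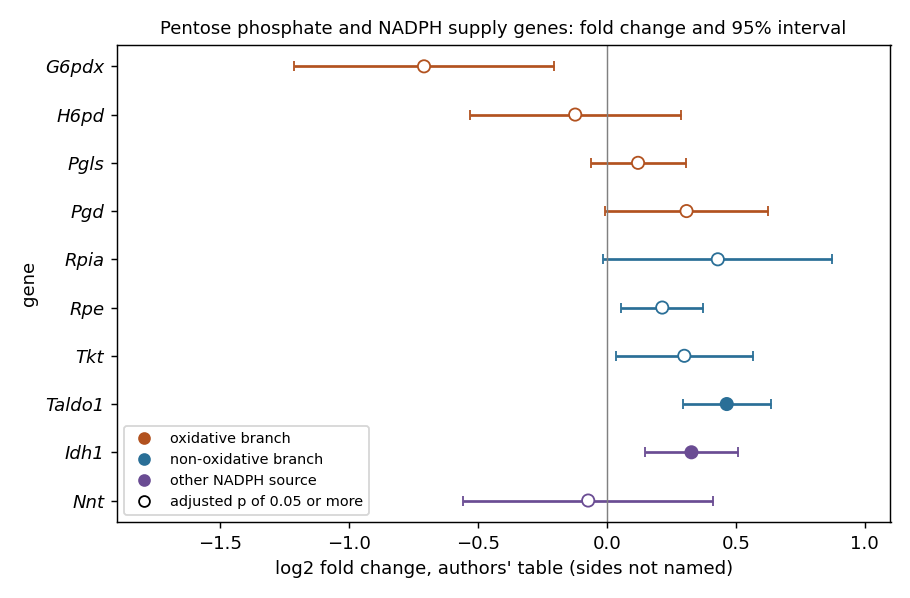
Log2 fold change in the authors' table (horizontal axis) of the 10 genes, one per line and coloured by role, with 95% intervals from the authors' SE. Filled points, Taldo1 at 0.47 and Idh1 at 0.33, have an adjusted p below 0.05, and the interval of G6pdx, from -1.21 to -0.21, lies wholly below 0.

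Sequence from the 250 bases before the RefSeq start site is shown for 3 genes of positive sign, the called genes Taldo1 and Idh1 and the further non-oxidative gene Rpe, leaving out bases in GENCODE M21 exons of any gene, which leaves 182 bases for Idh1 and the whole window for Taldo1 and Rpe. For G6pdx, the gene with the widest negative value, a stretch of 29 bases around 1 motif match is shown, because its whole window lies in an exon of a longer G6pdx transcript in GENCODE M21. The sequences are from RefSeq on GRCm38.p6 and run 5′ to 3′ on the strand of the gene. Capitals mark matches on either strand to the GC box (GGGCGG), the CCAAT box (CCAAT) and the core of the antioxidant response element (TGACNNNGC), which the stress factor NRF2 binds. Taldo1 lies on the plus strand at chr7:141391910-141392159, Rpe on the plus strand at chr1:66700581-66700830, Idh1 (the upstream of its 2 starts) on the minus strand at chr1:65186501-65186682, and the G6pdx stretch on the minus strand at chrX:74428919-74428947.
Taldo1: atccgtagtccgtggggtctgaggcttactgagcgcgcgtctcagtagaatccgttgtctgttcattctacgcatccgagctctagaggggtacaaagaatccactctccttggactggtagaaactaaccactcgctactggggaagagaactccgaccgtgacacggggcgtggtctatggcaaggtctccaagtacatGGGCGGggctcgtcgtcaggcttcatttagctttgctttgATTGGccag
Idh1: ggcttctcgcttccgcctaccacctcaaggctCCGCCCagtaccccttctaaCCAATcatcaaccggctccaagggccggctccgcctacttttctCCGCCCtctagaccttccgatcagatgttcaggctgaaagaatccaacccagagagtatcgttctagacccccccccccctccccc
Rpe: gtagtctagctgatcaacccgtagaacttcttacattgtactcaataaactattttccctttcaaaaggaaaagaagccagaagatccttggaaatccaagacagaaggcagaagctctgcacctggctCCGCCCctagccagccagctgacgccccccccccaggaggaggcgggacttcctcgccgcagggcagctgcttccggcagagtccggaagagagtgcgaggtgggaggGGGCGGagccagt
G6pdx: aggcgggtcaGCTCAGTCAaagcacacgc

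Of the 10 genes, 9 matched the RefSeq promoter table by symbol, with 11 start sites in all, and Nnt was not matched. The GC box was found before 9 of the 11 starts, and before 32.7% of the 32851 starts of all genes. The GC content of these windows was between 38.8% (H6pd) and 64.4% (Pgls), and the median of all windows was 52.4%. The part of base composition in the GC box matches was not tested. By GENCODE M21, the windows of G6pdx, H6pd and Tkt and the downstream windows of Idh1 and Pgd lie wholly inside the gene. Matches there, such as the CCAAT box of H6pd, are therefore not before the outermost start of the gene. The CCAAT box was found before 4 of 11 starts, those of Taldo1, Idh1, Pgd and H6pd, and before 33.8% of all starts. Among the 11 starts, the antioxidant response element core was matched before G6pdx alone, on the opposite strand and beginning 57 bases before the start, and it was found before 10.2% of all starts. In Tkt the GC box was matched at 3 places, of which the matches beginning 14 and 9 bases before the start share a base. The E-box (CACGTG) was found before 0 of 11 starts and 6.02% of all starts, and the TATA box (TATAAA) before 0 of 11 and 12.4% of all. These are matches of letters in the windows and no measure of binding.

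G6pdx encodes glucose phosphate dehydrogenase, the entry enzyme and main control point of the oxidative branch. It lies on chromosome X from 74409483 to 74429194 on the minus strand (GRCm38, GENCODE M21). Its mean normalized count was 121.47, and the authors' deposited table puts it at -0.71 ± 0.26 (SE) on the log2 scale, with a 95% interval from -1.21 to -0.21. With an adjusted p of 0.0729 the gene was not called. At its SE a log2 fold change of 0.76 in size would have been called. Only 4.03% of tested genes had a lower log2 fold change. The intervals of G6pdx and of Pgd, from -0.0055 to 0.62, do not overlap, and the difference between the 2 genes was not tested because it needs the single libraries.

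Counting limits apply to G6pdx. Of its exonic bases, 13.6% overlap exons of Ikbkg, which encodes a subunit of the NF-kappa-B activating kinase and lies on the opposite strand. Ikbkg had a mean normalized count of 1535 and stood at 0.0067 ± 0.11 (SE, log2 scale), per the authors' deposited table. The kit is stranded per the labels, but whether counting used the strand is not stated there. The autosomal copy G6pd2 on chromosome 5 matched 87.9% of the longest coding G6pdx transcript at 93.2% identity, and its own count was not analysed here. How far either gene moved the value of G6pdx was not tested.

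H6pd encodes the endoplasmic reticulum enzyme that carries out the dehydrogenase and lactonase steps and supplies NADPH to the steroid reductase encoded by Hsd11b1. It lies on chromosome 4 from 149979475 to 150009023. With a mean normalized count of 12570.5 it was the most counted gene of the set. The authors' deposited table puts it at -0.12 ± 0.21 (SE, log2 scale, adjusted p = 0.821), with an interval from -0.53 to 0.29. That interval leaves room for changes between 0.692-fold and 1.22-fold.

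Pgls encodes the cytosolic lactonase that follows G6pdx, and lies on chromosome 8 from 71592176 to 71601092. It stood at 0.12 ± 0.094 (SE, log2 scale, adjusted p = 0.528), per the authors' deposited table, with a mean normalized count of 942. Of its exonic bases 20.6% are shared with Fam129c on the same strand, a gene with a mean normalized count of 5.89. Pgd encodes phosphogluconate dehydrogenase, the enzyme of the last NADPH-forming step of the branch, and lies on chromosome 4 from 149149991 to 149166771. It was at 0.31 ± 0.16 (log2, SE, adjusted p = 0.274) with a mean normalized count of 752 in the authors' deposited table. Its interval, from -0.0055 to 0.62, reached just below 0. None of the 4 oxidative branch genes was called, and their median log2 fold change was -0.00083.

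Taldo1 encodes transaldolase, which passes a dihydroxyacetone unit between sugar phosphates. It lies on chromosome 7 from 141392199 to 141402968 on the plus strand. The authors' deposited table puts it at 0.47 ± 0.087 (SE, log2 scale, adjusted p = 1.2e-05), with an interval from 1.23-fold to 1.55-fold and a mean normalized count of 2006. By p it ranked 109 among the 16288 tested genes, and 92.2% of them had a lower log2 fold change. The processed pseudogene Gm17823 on chromosome 10 matched 67.8% of the longest coding Taldo1 transcript at 94.7% identity. The pseudogene had a mean normalized count of 19.99 and stood at -0.020 ± 0.35 (SE, log2 scale, adjusted p = 0.986), per the authors' deposited table.

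Tkt encodes transketolase, the thiamine-dependent partner of transaldolase, and lies on chromosome 14 from 30548359 to 30574720. It was at 0.30 ± 0.14 (SE, log2 scale, adjusted p = 0.185), per the authors' deposited table, with a mean normalized count of 2220, close to that of Taldo1. Its interval lay between 1.02-fold and 1.48-fold, and it overlapped that of Taldo1. A log2 fold change of 0.40 would have been needed for a call of Tkt, against 0.25 for Taldo1, whose SE was smaller.

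Rpe and Rpia encode the epimerase and the isomerase that act on ribulose phosphate at the entry of the non-oxidative branch. Rpe, on chromosome 1 from 66700831 to 66719805, was at 0.21 ± 0.081 (SE, log2 scale, adjusted p = 0.0883), per the authors' deposited table, with a mean normalized count of 566. Exons of Kansl1l on the opposite strand cover 17.9% of its exonic bases, and Kansl1l was at -0.25 ± 0.16 (SE, log2 scale) with a mean normalized count of 141 in the authors' deposited table. Rpia, on chromosome 6 from 70765720 to 70792232, stood at 0.43 ± 0.23 (SE, log2 scale, adjusted p = 0.282), with a mean normalized count of 93.2, per the authors' deposited table. Rpia thus had nearly the fold change of Taldo1 with an SE more than 2 times as large, and its interval, from -0.013 to 0.87, included 0. The median log2 fold change of the 4 non-oxidative genes was 0.37, with 1 called.

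Idh1 encodes the cytosolic and peroxisomal isocitrate dehydrogenase, which makes NADPH from isocitrate. It lies on chromosome 1 from 65158616 to 65186500 on the minus strand. It was at 0.33 ± 0.092 (SE, log2 scale, adjusted p = 0.0111), per the authors' deposited table, with an interval from 1.11-fold to 1.42-fold and a mean normalized count of 6090. It ranked 507 by p among tested genes. The call of Idh1 was lost with the statistic centred and divided by the spread of all statistics, at an adjusted p of 0.399, and with Holm adjustment, at 1. The call of Taldo1 was kept in both, at 0.0267 and 0.00131.

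Nnt encodes the mitochondrial transhydrogenase that uses the proton gradient to reduce NADP+ with NADH. It lies on chromosome 13 from 119335448 to 119408997 on the minus strand. It was at -0.072 ± 0.25 (log2, SE, adjusted p = 0.918) with a mean normalized count of 18.8 in the authors' deposited table. Its interval lay between 0.680-fold and 1.33-fold, with an SE close to that of G6pdx. As background, C57BL/6J mice, the strain of the reference genome, carry a deletion of several Nnt exons, while C57BL/6N mice, used here, carry the intact gene. GENCODE M21 places another gene of the same name (ENSMUSG00000116207) on the same strand, which covers 47.4% of the exonic bases of the Nnt row used here (ENSMUSG00000025453) and matches 96.4% of its longest coding transcript at 100% identity. Counts of that identifier were not analysed here. The part of the shared exons and of the reference strain in the low count was not tested.

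Levels were compared between the genes per kilobase of exonic sequence, computed from the authors' mean normalized counts, since longer transcripts yield more reads. H6pd at 2401 and Idh1 at 2198 mean normalized counts per kb stood highest, both above at least 97.8% of tested genes, followed by Taldo1 at 924 and Tkt at 302. Pgls at 249.9, Rpe at 182 and Pgd at 116.7 followed, and G6pdx at 39.4 lay near the median of tested genes of 38.2. Rpia at 17.4 and Nnt at 2.67 were lowest. With either length, the Nnt value makes no allowance for the other gene of the same name, which covers 47.4% of its exonic bases. Per kb, H6pd was 60.9-fold above G6pdx, Taldo1 23.4-fold and Pgd 2.96-fold. These ratios depend on the length used, and per kb of the longest coding transcript they were 57.8-fold, 32.2-fold and 7.41-fold. The mean levels of the 10 genes are taken over libraries that are not stated, and they have no error. Neighbours such as H6pd and Idh1 therefore cannot be put in a firm order. With the length of the longest coding transcript in place of all exonic bases, an alternative chosen after seeing the data, H6pd, Idh1 and Taldo1 kept ranks 1 to 3 and Nnt rank 10, while Pgls passed Tkt, Pgd passed Rpe and Rpia passed G6pdx.

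**Figure D2:**
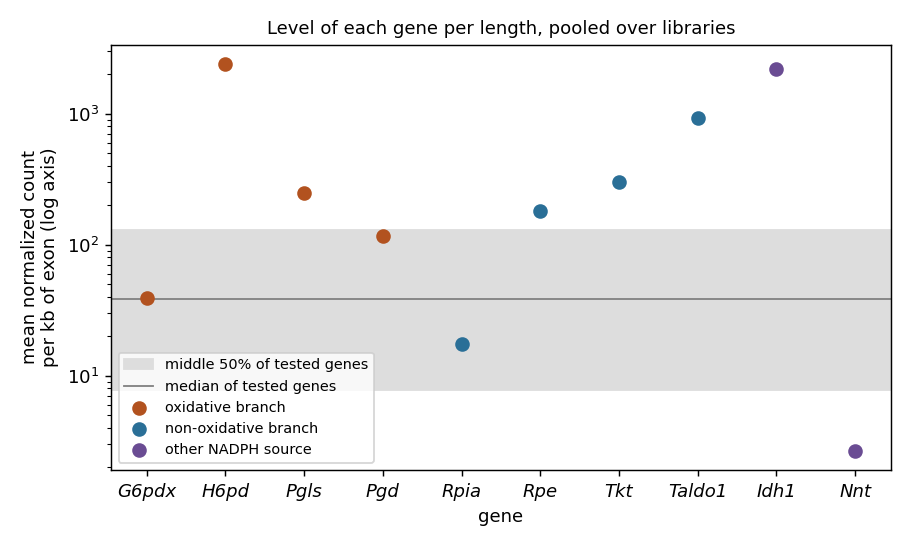
Mean normalized count per kb of exon (vertical log axis) of the 10 genes, coloured by role, as means over libraries with no error bar. The grey band holds the middle 50% of tested genes and the line their median of 38.2, with H6pd and Idh1 far above the band and Nnt at 2.67 below it. The value of Nnt makes no allowance for exons shared with the other gene of the same name.

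**Figure D3:**
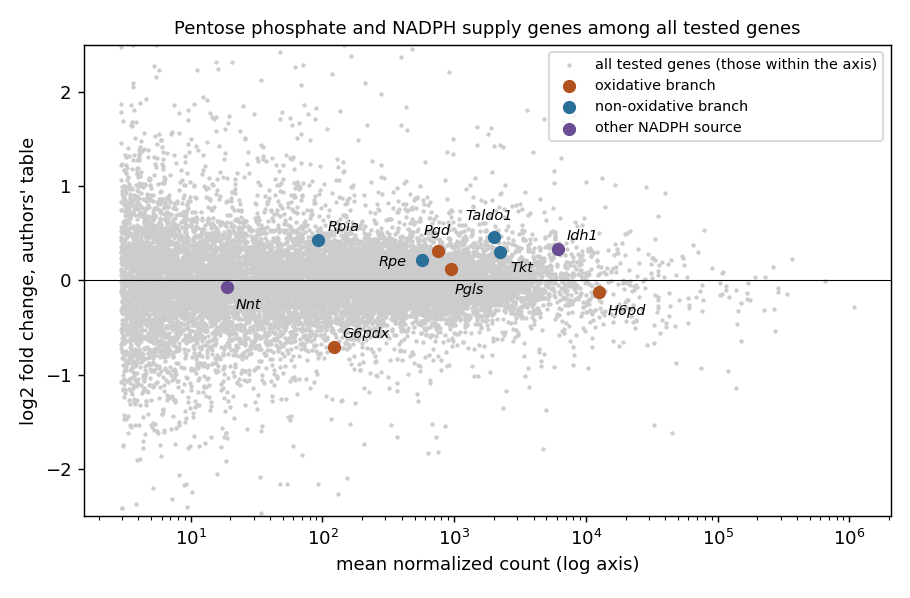
Log2 fold change in the authors' table (vertical axis, drawn between -2.5 and 2.5) against the mean normalized count (horizontal log axis) for all tested genes in grey and the 10 genes in colour. The fold changes of the set lie between -0.71 (G6pdx) and 0.47 (Taldo1), within the cloud of all genes.

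Among neighbours of the pathway the share of called genes was close to that of all tested genes (6.57%). Of 18 genes that join it to glycolysis, ribose and nucleotide synthesis, 15 were tested, with 0 called positive, 1 negative and 14 not called, and a median log2 fold change of 0.0067. At an unadjusted p under 0.05, 2 were positive and 2 negative, beside 19.0% of all tested genes in both directions. Fbp1, the fructose bisphosphatase gene of gluconeogenesis, was the called one at -0.44 ± 0.11 (SE, log2 scale, adjusted p = 0.00198), per the authors' deposited table, and its call was lost with Holm adjustment and with the scaled statistic. Rbks, the ribokinase gene, was at -0.26 ± 0.096 (adjusted p = 0.0738), and Dera, the deoxyribose phosphate aldolase gene, at 0.24 ± 0.0998 (SE, log2 scale, adjusted p = 0.142), per the authors' deposited table. Aldoa, an aldolase gene, was at 0.23 ± 0.27 (SE, log2 scale, adjusted p = 0.713), per the authors' deposited table. The transketolase-like genes Tktl1 and Tktl2 had mean normalized counts of 0.168 and 0.0733 and no adjusted p in the authors' deposited table.

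Other genes listed for NADPH supply did not move in 1 direction. Which cofactor each enzyme uses was not examined, so a place in the list does not show that an enzyme forms NADPH. Of 14 genes 13 were tested, with 1 called positive, 1 negative and 11 not called, and a median log2 fold change of -0.035, where 6.57% of all tested genes were called. Both calls were lost with Holm adjustment and with the scaled statistic. By the authors' unadjusted p under 0.05, 2 of the 13 were positive and 3 negative, beside 19.0% of all tested genes in both directions. Me2, a mitochondrial malic enzyme gene, was lower on the positive side at -0.73 ± 0.22 (SE, log2 scale, adjusted p = 0.0195), per the authors' deposited table. Mthfd2l, a mitochondrial folate dehydrogenase gene, was higher at 0.45 ± 0.15 (SE, log2 scale, adjusted p = 0.0419), per the authors' deposited table. Its paralogue Mthfd2 was at 0.69 ± 0.42 (adjusted p = 0.376), and Aldh1l1, the cytosolic formyltetrahydrofolate dehydrogenase gene, at -0.31 ± 0.11 (SE, log2 scale, adjusted p = 0.0725), per the authors' deposited table. Me1, the cytosolic malic enzyme gene and a classical NADPH source for fat synthesis, was named after its value was seen, and was at 0.35 ± 0.22 (SE, log2 scale, adjusted p = 0.393), per the authors' deposited table.

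Of 14 enzymes that spend NADPH, or work beside those that do, in synthesis and oxidation, 1 was called positive, 1 negative and 12 not, with a median log2 fold change of -0.20, where 6.57% of all tested genes were called. By the authors' unadjusted p under 0.05, 3 of the 14 were positive and 3 negative, beside 19.0% of all tested genes in both directions. Por, which passes electrons from NADPH to the cytochrome P450 enzymes, was lower on the positive side at -0.70 ± 0.14 (SE, log2 scale, adjusted p = 6.1e-05), per the authors' deposited table. Hsd17b12, a reductase of fatty acid elongation, was higher at 0.50 ± 0.14 (SE, log2 scale, adjusted p = 0.0151), per the authors' deposited table. Fasn, the fatty acid synthase gene, was at 0.52 ± 0.30, and Dhcr7, a sterol reductase gene, at 0.51 ± 0.23 (SE, log2 scale), and the authors' deposited table calls neither of them. The call of Hsd17b12 was lost with Holm adjustment and with the scaled statistic, and that of Por with the scaled statistic.

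Of 13 antioxidant genes, 3 were called positive, 0 negative and 10 not, with a median log2 fold change of 0.14. By the authors' unadjusted p under 0.05, 3 of the 13 were positive and 0 negative, beside 9.64% positive and 9.41% negative of all tested genes. Of all tested genes 3.67% were called positive. All 3 calls were lost with Holm adjustment and with the scaled statistic, and that of Txnrd2 also with Benjamini-Hochberg adjustment over all 30463 genes. Gpx1, the glutathione peroxidase gene, was at 0.44 ± 0.13 (SE, log2 scale, adjusted p = 0.0172), per the authors' deposited table. Txnrd2, the mitochondrial thioredoxin reductase gene, was at 0.36 ± 0.12 (adjusted p = 0.0465), and Txn1, the cytosolic thioredoxin gene, at 0.25 ± 0.077 (SE, log2 scale, adjusted p = 0.0223), per the authors' deposited table. Nqo1, a quinone reductase gene often used as a readout of NRF2, was at -0.13 ± 0.23 (adjusted p = 0.834), and the mitochondrial thioredoxin gene Txn2 at -0.11 ± 0.069 (SE, log2 scale, adjusted p = 0.380), per the authors' deposited table.

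**Figure D4:**
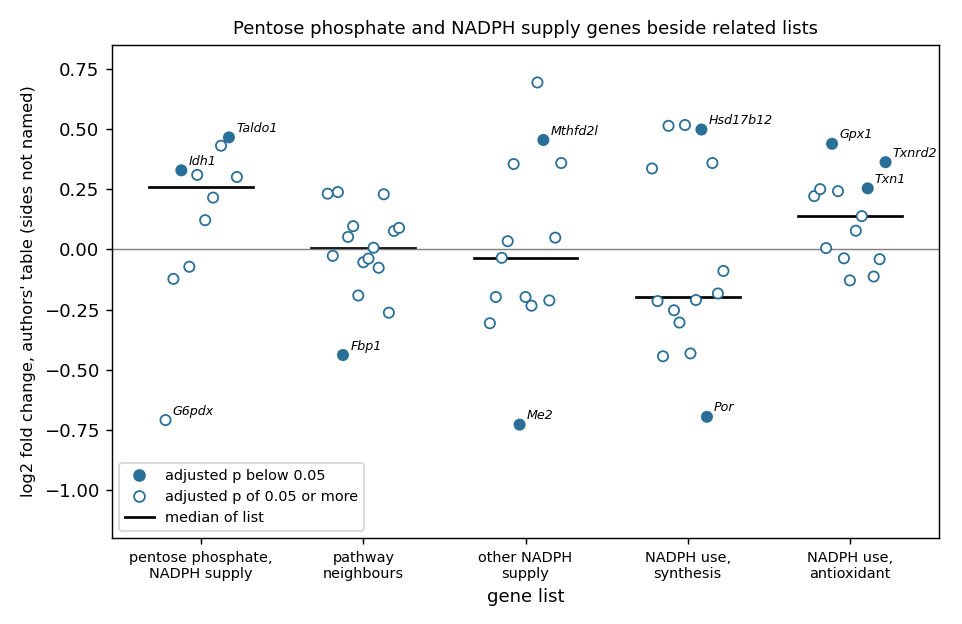
Log2 fold change in the authors' table (vertical axis) of each tested gene in the 10-gene set and 4 related lists (horizontal axis), filled where the adjusted p is below 0.05, with the list median as a bar. The medians are 0.26 for the set and 0.0067, -0.035, -0.20 and 0.14 for the lists from left to right, and called genes are labelled together with G6pdx.

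Macrophages, endothelial cells and neutrophils are known to express G6pdx too, so their markers are given beside it. All 7 Kupffer cell markers were negative in sign, between -0.76 and -0.33, with 1 called (Timd4, at -0.76 ± 0.26, log2, SE, adjusted p = 0.0494) and 4 at an unadjusted p under 0.05 in the authors' deposited table. All 6 sinusoidal endothelial markers were negative in sign, between -0.80 and -0.10, with 0 called and 2 at an unadjusted p under 0.05. All 7 neutrophil markers were negative in sign, between -2.78 and -0.33, with a median log2 fold change of -2.16. Of these 7, 0 were called and 2 were at an unadjusted p under 0.05. Their SE were wide, as in Ltf at -2.74 ± 1.35 (log2, SE, named after its value was seen) in the authors' deposited table. No marker of these lists was at 0, and the lowest mean normalized count was 4.32, that of Ly6g. Of all tested genes, 2.90% were called negative and 9.41% were negative at an unadjusted p under 0.05 by the authors' statistic. In sign, 49.2% of all tested genes were positive.

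The markers with the highest mean count in the other lists were Alb for hepatocytes at -0.29 ± 0.21, Hbb-bs for red cells at 0.46 ± 0.33, Dcn for stellate cells at -0.14 ± 0.19 and Spp1 for bile duct cells at 0.22 ± 0.25 (SE, log2 scale), and the authors' deposited table calls none of them. For Kupffer cells it was Marco at -0.62 ± 0.52, for sinusoidal endothelium Stab2 at -0.10 ± 0.17 and for neutrophils S100a9 at -0.33 ± 0.77 (SE, log2 scale), and the authors' deposited table calls none of them. Ahsg was called among hepatocyte markers, at -0.64 ± 0.14 (SE, log2 scale, adjusted p = 0.00037), per the authors' deposited table. Of 7 tested hepatocyte markers 6 were negative in sign, as were 4 of 6 red cell and 4 of 5 stellate cell markers. All 4 bile duct markers were positive in sign. In whole liver, fewer cells of a type and less RNA per cell cannot be told apart. The part of these cell types in the value of G6pdx was not tested, since it needs the single libraries.

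**Figure D5:**
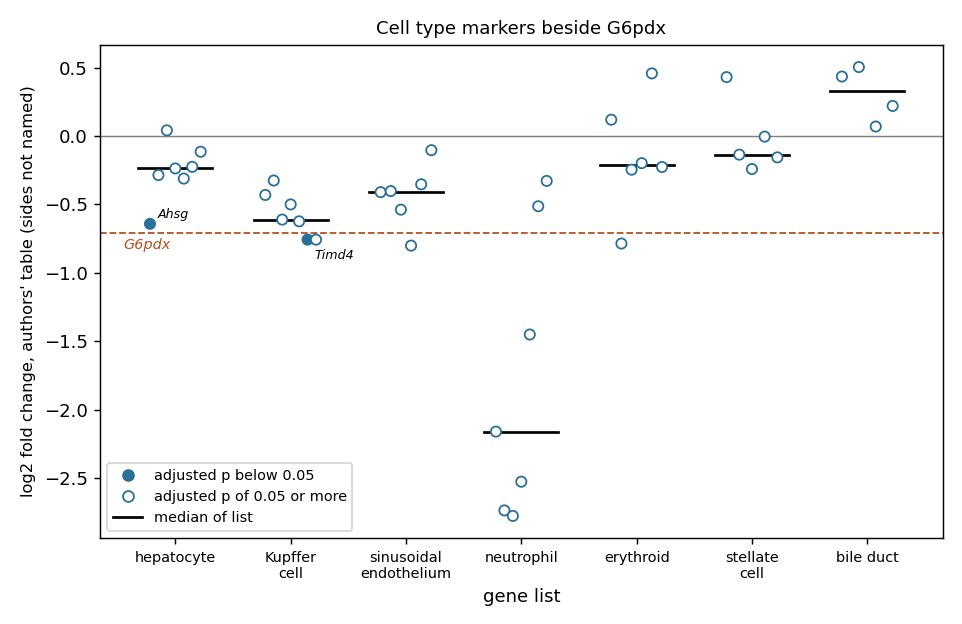
Log2 fold change in the authors' table (vertical axis) of cell type markers by list (horizontal axis), filled where the adjusted p is below 0.05, with list medians as bars and the value of G6pdx, -0.71, as a dashed line. All markers of Kupffer cells, sinusoidal endothelium and neutrophils lie below 0. So do 6 of 7 hepatocyte, 4 of 6 red cell and 4 of 5 stellate cell markers, while all 4 bile duct markers lie above 0.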

How the data were processed

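RNA sequencing was done on 16 liver samples in 4 groups of 4, per the labels. FastQC, Trimmomatic, HISAT2, HTSeq 0.11.1 and the build GRCm38 appear, per the submitters' processing notes, with no role, order or strand setting. Per gene, the deposited table holds the mean normalized count (a signal made by the authors), log2 fold change with SE on the log2 scale, test statistic (a score), p-value and adjusted p-value, per the file headers. Tool, normalization and the sides compared were not given in the sources used here. On the values, the p-value is the two-sided normal p of the fold change over its SE, and the adjusted p-value is Benjamini-Hochberg over 16288 genes. The 16 library columns match no sample label and were not used, so the planned fit on libraries was not run, and depth per sample is not given.

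Members, lists and tests were chosen with earlier results of these data known. Named were all 10 genes, called genes and the 2 widest of each sign of 4 pathway lists, and for markers the most counted and the called genes; 1 gene under this rule and 1 motif are not reported here. Two-sided tests are the authors'. Python 3.11.15, pandas 2.3.3 and scipy 1.17.1 were used, and adjustments were tested on simulated data. Exonic bases came from GENCODE M21, matched for 30372 of 30463 genes. Copies were sought with BLAST 2.17.0 (identity of at least 90% over at least 100 bases). Alternatives were Benjamini-Hochberg over all 30463 genes, Holm adjustment, a mean count of at least 100, a threshold of 0.10 and a scaled statistic. The labels do not say that each sample is 1 animal, and which samples entered the comparison is not stated. The spread behind the authors' SE and p-values may therefore be technical.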

Additional observations from a re-analysis of the deposited data

How the results depend on the processing

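The calls were recomputed under 5 alternatives. With Benjamini-Hochberg over all 30463 genes, and with a minimum of 100 on the mean normalized count, the number of called genes of the 10-gene set was 2 each, and with the threshold at 0.10 it was 4 (G6pdx and Rpe passing as well). It was 1 with Holm adjustment and 1 with the statistic centred and scaled, Taldo1 in both. Over all genes, 1070 calls became 185 with Holm adjustment and 142 with the scaled statistic. Pathway neighbours had 2 calls at the threshold of 0.10, and 0 with Holm adjustment and 0 with the scaled statistic. Other NADPH supply genes had 1 call over all genes with a p-value (Me2), 1 with the count minimum (Slc25a1, the citrate carrier gene, not called at 0.05 in any other setting), 5 at 0.10, 0 with Holm and 0 with the scaled statistic. Synthesis genes had 1 call with Holm and 0 with the scaled statistic, and antioxidant genes 0 and 0, with 2 calls over all genes with a p-value. Holm adjustment lowers calls by its stricter bound and the scaled statistic by dividing by 1.44. That divisor is the spread of the statistic over all tested genes, called ones included, so the scaled setting can be too strict. Among the 10 genes and the called genes of the pathway lists, Rpia, Nnt, Me2 and Mthfd2l have mean counts below 100. They gave no value with that minimum.

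No paired analysis was possible because the library columns carry no label, and for the same reason no library was left out and no DESeq2 or unfiltered fit on libraries was run. Depth per library is unknown here, and the authors' SE is the measure of precision for each gene.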
